A study of Mus musculus with 20 samples.

Results

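The comparison set 2 libraries of CD4+ T cells that lacked the histone methyltransferase DOT1L and had been cultured for 4 days under conditions that drive T helper 1 (Th1) cells beside 2 libraries of DOT1L-deficient naive CD4+ T cells. All genes of the protein-coding count table entered, and the libraries were chosen by their labels alone, so 4 of the 20 libraries of the series make up the contrast. The series measured RNA by sequencing in mouse CD4+ T cells from spleen and peripheral lymph nodes, in naive, Th1 and Th2 states, in wild type cells, in cells without DOT1L and in wild type cells cultured with small molecules. In the knockout group (KO, CD4Cre+DOT1L FL/FL) both floxed alleles of Dot1l are recombined by a Cre recombinase driven by the CD4 promoter, so all cells that have expressed CD4 during their development in the thymus are targeted, not the naive or cultured state alone. The wild type group (WT) carries the same CD4-Cre without floxed Dot1l, and Cre is thus shared by every group used here. For Th1 cultures, CD4+ cells were placed on plates coated with antibodies to CD3 and CD28, each at 1 µg/ml, with IL-2 and IL-12, each at 10 ng/ml, and an antibody blocking IL-4 at 10 µg/ml, and viable CD4+ cells were sorted on day 4. For Th2 cultures, IL-4 at 10 ng/ml and an antibody blocking IFN-γ at 10 µg/ml took the place of IL-12 and the anti-IL-4 antibody. Naive cells were not cultured. The age and sex of the mice are not given in the sources used here, and the labels do not say whether replicates 1 and 2 are separate mice. Every p-value thus rests on the spread between replicate libraries, estimated over all 20 libraries of the series, and that spread may be technical.

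A naive CD4+ T cell circulates in a quiescent state held by transcription factors such as KLF2, TCF7 and FOXO1. When the antigen receptor and CD28 are engaged it grows and divides, and IL-12 acting through STAT4, with IFN-γ and the transcription factor T-bet (Tbx21), turns the dividing cell into a Th1 cell that secretes IFN-γ and can take on a cytotoxic program of granzymes and perforin. DOT1L methylates lysine 79 of histone H3, a mark found along the body of transcribed genes. The contrast asks how the activation and Th1 response runs in cells without this enzyme.

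The KO Th1 libraries held 12016641 and 11472401 counts over protein-coding genes, and the KO naive libraries 10325052 and 10442623. The other libraries of the series held between 9704500 and 13025588. Levels are given as CPM (counts scaled to the same library total in all libraries) after scaling of library sizes by the trimmed mean of M-values, and a log2 change is that of KO Th1 over KO naive with its standard error (± SE) unless another pair is named. A gene is called where edgeR's quasi-likelihood test gave a Benjamini-Hochberg adjusted p under 0.05 over the 13072 genes tested. Replicates differed by more than counting noise: the log2 difference between replicates had an SD over genes of 0.275 in KO Th1 cultures and 0.350 in KO naive cells, against 0.238 in WT Th1 cultures and 0.285 in WT naive cells. In KO Th2 cultures this SD was 0.395. In such bulk libraries, fewer cells of a type and less RNA per cell cannot be told apart.

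Dot1l itself (chr10:80755206-80795461 of GRCm38, plus strand) had 131 and 146 CPM in KO Th1 cultures, against 146 and 166 CPM in KO naive cells. Its log2 change was -0.17 ± 0.11 (adjusted p = 0.176), and the levels of the KO and WT libraries lay close together, with 176 and 186 CPM in WT Th1 cultures and 163 and 171 CPM in WT naive cells. The table sums reads over every exon, whether deleted or not, so it is a weak check of the genotype.

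Of the 13072 genes tested, 4729 were higher in KO Th1 cultures than in KO naive cells (36.2%), 4549 were lower (34.8%) and 3794 were not called. At least a 2-fold change was reached by 2466 of the genes called higher (18.9% of those tested) and 2208 of those called lower (16.9%). The median log2 change over all genes tested was 0.01. List counts for this contrast are to be read beside these shares of 36.2% higher and 34.8% lower. The 12 genes with the highest log2 change included 4 granzymes, and the 12 with the lowest are known from macrophages or red cell precursors.

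**Figure D1:**
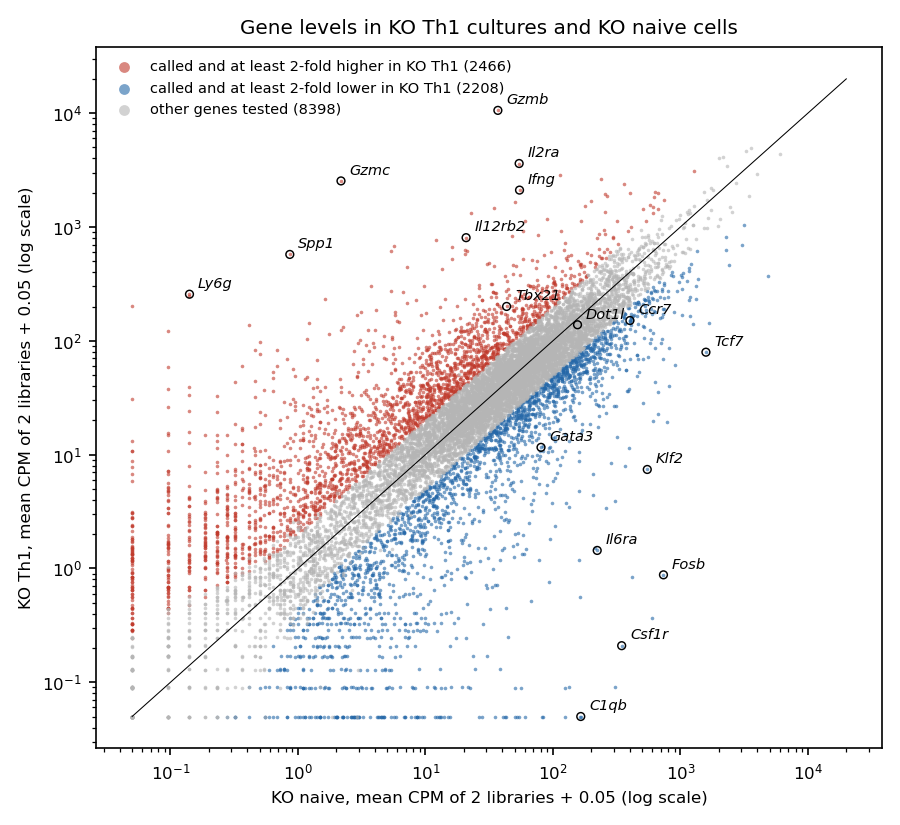
Mean CPM of the 2 KO Th1 libraries (vertical axis) against that of the 2 KO naive libraries (horizontal axis) for each of the 13072 genes tested, both on a log scale after adding 0.05. The 2466 genes called and at least 2-fold higher lie above the line of equal levels and the 2208 at least 2-fold lower lie below it, with Gzmb, Gzmc, Il2ra and Ifng near the top and C1qb at the bottom edge.

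Both sets of libraries carried the RNA of T cells. The 8 T cell markers, among them Cd3e and Lck, summed to 3884 and 3766 CPM in KO Th1 cultures, against 3397 and 3824 CPM in KO naive cells. Of the 8, 5 fell and 3 rose, with a median log2 change of -0.48. Thy1 rose the most, by 1.21 on the log2 scale. Cd4, the coreceptor of helper T cells, had 212 and 199 CPM in KO Th1 cultures, against 409 and 398 CPM in KO naive cells, a log2 change of -0.97 ± 0.11 (adjusted p = 9.38e-07), while WT cells had 1049 and 1007 CPM in Th1 cultures and 981 and 989.6 CPM before culture.

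Markers of other cells moved with the culture, and their part in the results was not tested. The 13 myeloid and dendritic markers summed to 87.8 and 71.3 CPM in KO Th1 cultures, against 1300.5 and 629 CPM in KO naive cells, and 8 of them fell, while Flt3 and Itgam rose; the rise of Flt3 lost its call without either KO Th1 library or without replicate 2 of KO naive. Among these, the growth factor receptor gene Csf1r had 0.0774 and 0.242 CPM in KO Th1 cultures, against 463 and 229 CPM in KO naive cells, and the lysozyme gene Lyz2 had 0.542 and 0.483 CPM in KO Th1 cultures, against 239 and 88.7 CPM in KO naive cells, so both were at or near 0 after culture. All 7 erythroid markers, globins among them, fell, with sums of 8.82 and 6.84 CPM in KO Th1 cultures, against 1340.3 and 323 CPM in KO naive cells.

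The replicates were thus unequal: replicate 1 of the KO naive cells held more myeloid and erythroid RNA than replicate 2. The 10 B cell markers were low in all 4 libraries, with sums of 28.9 and 7.49 CPM in KO Th1 cultures, against 106 and 66.5 CPM in KO naive cells. NK cell markers summed to 80.3 and 47.3 CPM in KO Th1 cultures, against 126 and 95.7 CPM in KO naive cells. The list of 10 genes for the handling of cells holds heat shock genes, such as Hspa8, and early genes, such as Dusp1. It summed to 1450.3 and 1430.5 CPM in KO Th1 cultures, against 3026 and 2602 CPM in KO naive cells. Of these 10, 6 fell and 2 rose.

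The 2 CD8 T cell markers, Cd8a and Cd8b1, moved in opposite directions and summed to 27.6 and 22.1 CPM in KO Th1 cultures, against 16.8 and 14.8 CPM in KO naive cells. The mast cell and basophil list moved upward. Of 14 tested mast cell and basophil markers, 13 rose, and the 15 in the table summed to 2584 and 1127 CPM in KO Th1 cultures, against 172 and 84.7 CPM in KO naive cells. WT Th1 cultures had 207 and 157 CPM and WT naive cells 70.1 and 37.2 CPM. Cpa3, the mast cell carboxypeptidase, had 1112 and 438 CPM in KO Th1 cultures, against 18 and 6.27 CPM in KO naive cells, a log2 change of 5.99 ± 0.63 (adjusted p = 2.06e-06). Replicate 1 was the higher in each pair, and the KO Th1 and KO naive libraries did not overlap. Fcer1a, the alpha chain of the high-affinity IgE receptor, rose by 5.88 ± 0.46 on the log2 scale, with 239 and 97.1 CPM in KO Th1 cultures, against 3.96 and 1.73 CPM in KO naive cells.

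**Figure D2:**
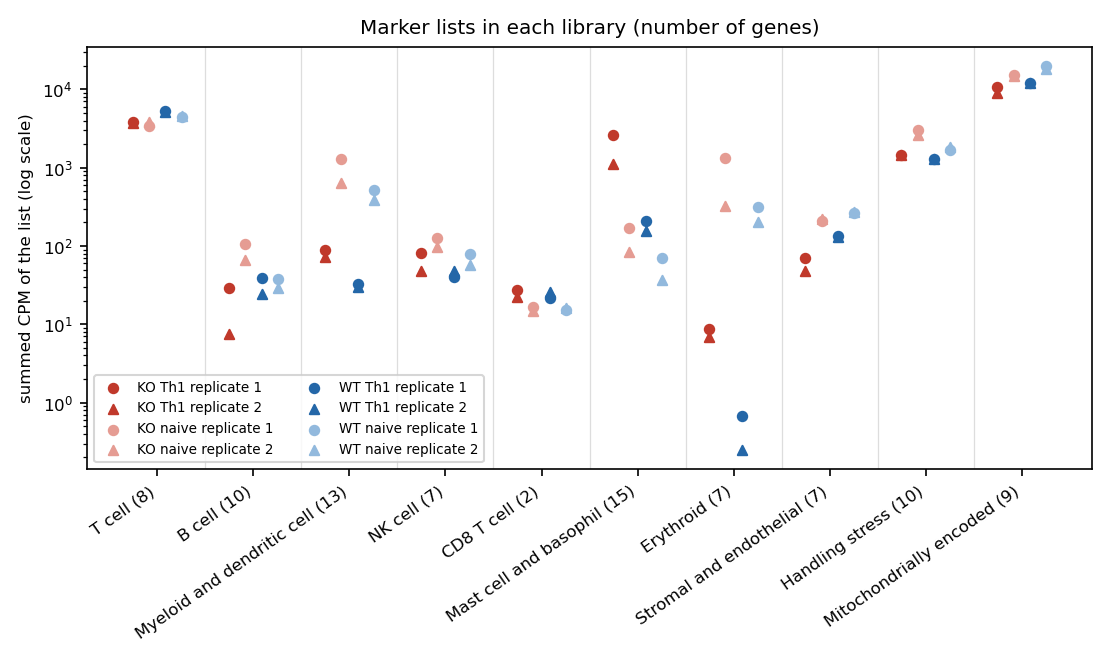
Summed CPM of each marker list (vertical axis, log scale) in every KO and WT, Th1 and naive library, with replicates as circles and triangles and the number of genes in brackets. The myeloid, erythroid and stress sums of KO Th1 cultures lie below those of KO naive cells, while the mast cell and basophil sums of 2584 and 1127 CPM lie above all others of that list.

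The signature cytokine of Th1 cells rose strongly. Ifng (chr10:118441047-118445892 of GRCm38, plus strand) had 2559 and 1658 CPM in KO Th1 cultures, against 51.9 and 57.4 CPM in KO naive cells, which is 2108 ± 637 CPM against 54.6 ± 3.87 CPM (SD, n = 2 each), a log2 change of 5.27 ± 0.30 (adjusted p = 1.83e-09). Both KO Th1 libraries stood far above both KO naive libraries, and the transcript was the tenth most abundant per length in KO Th1 cultures, at 5910 ± 1664 TPM (counts divided by exon length and scaled to a common total), against 177 ± 10.8 TPM in KO naive cells (SD, n = 2 each). In WT cells Ifng had 727 and 700.1 CPM after Th1 culture and 16.8 and 12.8 CPM before, a log2 change of 5.60 ± 0.32, and the difference between the KO and WT changes was not called (-0.33 ± 0.39, adjusted p = 0.578).

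The list of receptors for IL-12, IL-18, IFN-γ and IL-2 also held kinases, STAT factors and SOCS inhibitors. Of its 23 genes 14 were higher, 6 were lower and their median log2 change was 0.67, against 0.01 for all genes. The rise of Ifngr1 lost its call without any one library of the contrast. That of Socs2 did so without replicate 1 of KO Th1 or replicate 2 of KO naive. Il12rb2, the inducible chain of the IL-12 receptor, had 821 and 789.6 CPM in KO Th1 cultures, against 22.7 and 18.9 CPM in KO naive cells, a log2 change of 5.27 ± 0.14 (adjusted p = 1.31e-14). Il2ra, the high-affinity chain of the IL-2 receptor, had 3678 and 3543 CPM in KO Th1 cultures, against 54.3 and 54.2 CPM in KO naive cells, a log2 change of 6.06 ± 0.14 (adjusted p = 4.56e-15). For both genes the groups were far apart and the replicates close.

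The other chain of the IL-12 receptor, Il12rb1, rose by 2.11 ± 0.13, and the IL-18 receptor chain Il18r1 by 1.68 ± 0.16. The 6 members that fell were Ifngr2, Il27ra, Socs3 and the kinases Jak1, Jak2 and Tyk2. Ifngr2, the signalling chain of the IFN-γ receptor, had 4.26 and 4.75 CPM in KO Th1 cultures, against 82.5 and 94.4 CPM in KO naive cells, a log2 change of -4.29 ± 0.16 (adjusted p = 1.21e-12). Its KO Th1 libraries were thus low and close to each other, while both KO naive libraries were high. Jak1, the kinase shared by the IL-2 and IFN-γ receptors, had 446 and 434 CPM in KO Th1 cultures, against 1132 and 1223 CPM in KO naive cells, a log2 change of -1.42 ± 0.12.

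T-bet's gene Tbx21 (chr11:97098071-97115331 of GRCm38, minus strand) had 200 and 201 CPM in KO Th1 cultures, against 45.1 and 41.4 CPM in KO naive cells, a log2 change of 2.21 ± 0.14 (adjusted p = 5.12e-10). The 2 libraries of each group were nearly equal and the groups did not overlap. Of the 14 Th1 and effector transcription factors, 10 rose, with a median of 1.34, and 3 fell, which were Eomes, Ikzf3 and Irf1. The T-box factor Eomes, best known from cytotoxic cells, had 10.4 and 9.34 CPM in KO Th1 cultures, against 43.6 and 40 CPM in KO naive cells, a log2 change of -2.08 ± 0.25 (adjusted p = 1.68e-06). Hlx, a homeobox partner of T-bet, rose by 4.83 ± 0.30 on the log2 scale, and Hopx, a homeodomain-only protein found in effector T cells, by 2.88 ± 0.17.

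**Figure D3:**
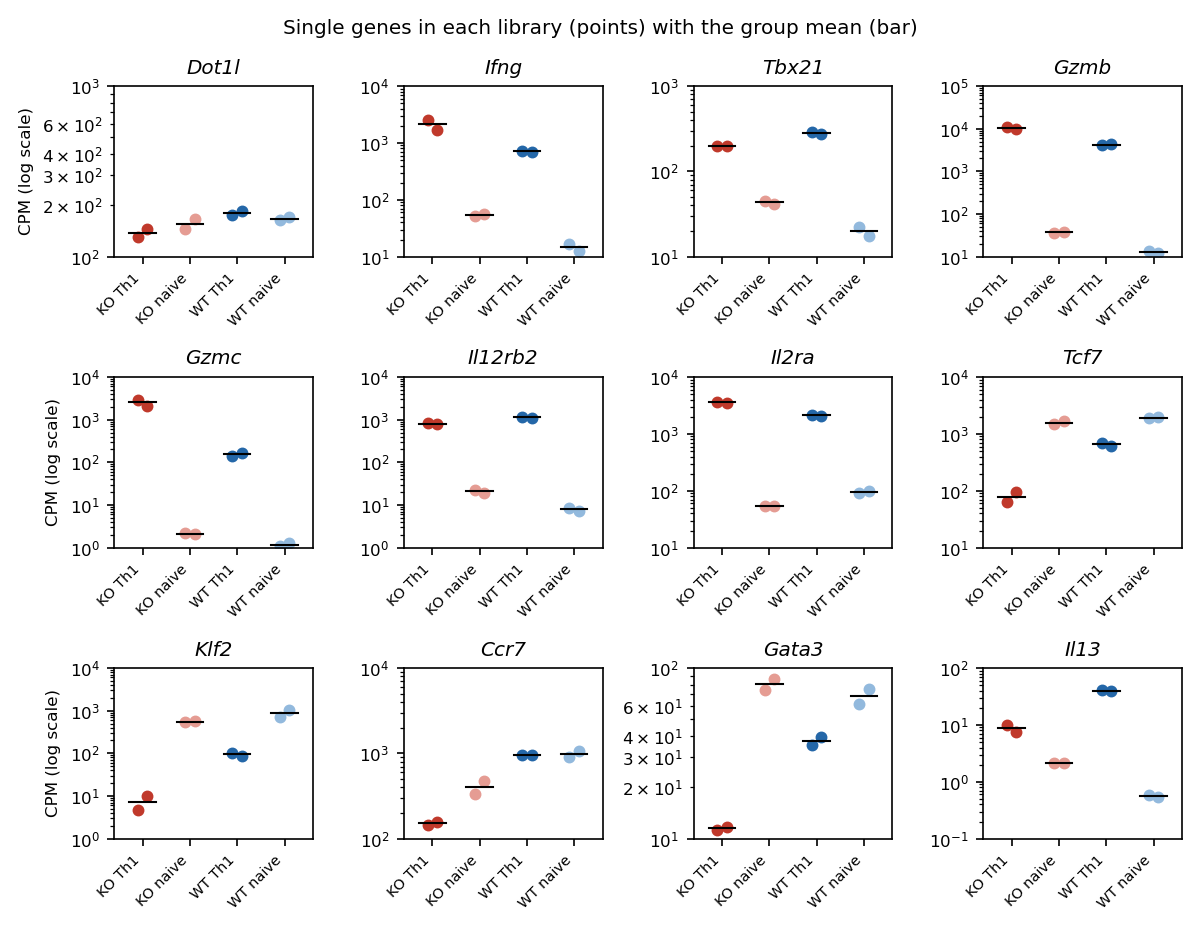
CPM on a log scale of 12 genes in each KO and WT, Th1 and naive library, with points for libraries and a bar for the mean of 2. KO Th1 libraries lie above KO naive libraries for Ifng, Tbx21, Gzmb, Gzmc, Il12rb2, Il2ra and Il13, below them for Tcf7, Klf2, Ccr7 and Gata3, and level for Dot1l.

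Among effector cytokines 13 of 20 rose and 6 fell, with a median log2 change of 0.95. Il10, which restrains inflammation, had 59.8 and 64.6 CPM in KO Th1 cultures, against 2.79 and 2.55 CPM in KO naive cells. Csf2, the gene of GM-CSF, had 27.7 and 16.5 CPM in KO Th1 cultures, against 0.809 and 1.64 CPM in KO naive cells. Both were low before culture and far higher after it, with log2 changes of 4.54 ± 0.22 and 4.17 ± 0.39. Il21, a cytokine of follicular helper and effector cells, rose by 4.54 ± 0.25, with 103 and 116 CPM in KO Th1 cultures, against 5.31 and 4.09 CPM in KO naive cells. Il3, a growth factor for myeloid cells, had 53 counts over both KO Th1 libraries and none over the KO naive libraries, at least 15.4-fold higher by the floor of 3 counts. The members that fell were Areg, Cd40lg, Il16, Il2, Ltb and Tnfsf11, of which Ltb lost its call without replicate 2 of KO naive and Tnfsf11 without replicate 2 of KO Th1. Cd40lg, the ligand by which helper cells instruct B cells, had 16.3 and 13.8 CPM in KO Th1 cultures, against 121 and 128 CPM in KO naive cells, a log2 change of -3.05 ± 0.12 (adjusted p = 1.4e-12), and Il2, the growth factor that was also added to the medium, had 0.697 and 0.403 CPM in KO Th1 cultures, against 3.51 and 3.45 CPM in KO naive cells, a log2 change of -2.63 ± 0.62. The libraries of each group were close to each other for Cd40lg, and for Il2 all 4 were low.

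The chemokine ligands that call in other leukocytes rose in 6 of 9 cases and fell in 1, with a median of 2.32. Ccl3 and Ccl4 attract macrophages and T cells. Ccl3 had 654 and 608 CPM in KO Th1 cultures, against 25.8 and 14.9 CPM in KO naive cells, and Ccl4 had 643 and 597 CPM in KO Th1 cultures, against 27.5 and 14.9 CPM in KO naive cells, so each was higher in both KO Th1 libraries, with log2 changes of 4.95 ± 0.20 and 4.87 ± 0.23. Ccl1 had 6.42 and 7.81 CPM in KO Th1 cultures, against 0.540 and 0.364 CPM in KO naive cells. Xcl1, which attracts cross-presenting dendritic cells, had 66.3 and 56.2 CPM in KO Th1 cultures, against 11.1 and 13.5 CPM in KO naive cells, a log2 change of 2.32 ± 0.30. Cxcl9, a chemokine induced by IFN-γ, had 0.464 and 0.564 CPM in KO Th1 cultures, against 2.88 and 2.36 CPM in KO naive cells and was the member that fell (-2.33 ± 0.50).

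The cytotoxic granule genes showed the highest levels of the response. Of 17 tested, 15 rose, with a median log2 change of 3.01, and 2 fell, which were Gzmm and Lamp1. Granzyme B (Gzmb, chr14:56258856-56262260 of GRCm38, minus strand), a protease that triggers apoptosis in target cells, was the most abundant protein-coding transcript per length in KO Th1 cultures, at 25298 ± 1303 TPM, and ranked 2207 in KO naive cells, at 102 ± 0.0671 TPM (SD, n = 2 each). Its log2 change was 8.16 ± 0.20 (adjusted p = 6.25e-15).

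Granzyme C (Gzmc, chr14:56231401-56234656 of GRCm38, minus strand) had 2951 and 2125 CPM in KO Th1 cultures, against 2.16 and 2.09 CPM in KO naive cells, a log2 change of 10.21 ± 0.44 (adjusted p = 1.22e-10). It was the fourth most abundant transcript per length after culture, at 9203 ± 1924 TPM, and ranked 9302 before. Gzma had 2109.5 and 1196 CPM in KO Th1 cultures, against 57 and 43.1 CPM in KO naive cells and perforin (Prf1), which opens the target cell membrane, had 1613 and 1336 CPM in KO Th1 cultures, against 38.2 and 30.3 CPM in KO naive cells. Their log2 changes were 5.04 ± 0.31 and 5.43 ± 0.21, and in both the KO Th1 libraries were unequal with replicate 1 the higher.

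The granzymes Gzmd, Gzme, Gzmf and Gzmg, which lie in the same cluster on chromosome 14 as Gzmb and Gzmc, were read almost solely after culture. Gzmd had 5132 counts over both KO Th1 libraries and none over both KO naive libraries, so with a floor of 3 counts for the KO naive group it was at least 1493-fold higher. Gzme had 3115 counts after culture and 1 before, a ratio of 2719 with a 95% counting interval of 488 to 107440. Gzmf had 1503 counts and 1 count, a ratio of 1312 (235 to 51858), and Gzmg had 661 counts and 1 count, a ratio of 577 (103 to 22826). Multimapping reads are left out of the table, so the levels of such near-identical granzymes are uncertain.

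Genes of lectin-like and NK receptors rose in 10 of 14 cases, with a median of 1.46, and fell in 3, which were Cd226, Hcst and Klrb1c. Klrc1, a chain of the NKG2A receptor for non-classical MHC molecules, had 266 and 188 CPM in KO Th1 cultures, against 34.9 and 20.6 CPM in KO naive cells, a log2 change of 3.03 ± 0.27. Crtam, an adhesion receptor of cytotoxic CD4+ cells, had 28.6 and 37 CPM in KO Th1 cultures, against 5.76 and 6 CPM in KO naive cells, a log2 change of 2.48 ± 0.28. Cd226, a costimulatory receptor, had 5.19 and 2.98 CPM in KO Th1 cultures, against 52.9 and 64.3 CPM in KO naive cells, a log2 change of -3.83 ± 0.22. In none of these 3 genes did the KO Th1 and KO naive libraries overlap. List members were named for their large called changes, so this adds little to the calls. Cd8a, the chain that marks CD8+ T cells, had 17.9 and 12.8 CPM in KO Th1 cultures, against 2.52 and 1.18 CPM in KO naive cells and rose by 3.04 ± 0.48, while Cd8b1, its partner chain in CD8+ cells, fell by 0.55 ± 0.15, with 9.75 and 9.26 CPM in KO Th1 cultures, against 14.3 and 13.6 CPM in KO naive cells.

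Genes that mark naive and quiescent T cells fell almost as a block: 21 of 24 fell and 1, Satb1, rose, with a median log2 change of -1.84. Tcf7, which keeps T cells naive or memory-like, had 64.4 and 94.3 CPM in KO Th1 cultures, against 1481 and 1688 CPM in KO naive cells, a log2 change of -4.32 ± 0.36 (adjusted p = 1e-07). Klf2, which holds T cells in quiescence and in circulation, had 4.72 and 9.98 CPM in KO Th1 cultures, against 539 and 559 CPM in KO naive cells, a log2 change of -6.23 ± 0.28 (adjusted p = 1.11e-10). Each KO Th1 library lay far below each KO naive library. Il6ra, the receptor chain for IL-6, had 1.01 and 1.77 CPM in KO Th1 cultures, against 214 and 231 CPM in KO naive cells, a log2 change of -7.32 ± 0.20. Ccr7, the chemokine receptor for lymph node entry, had 144 and 157 CPM in KO Th1 cultures, against 332 and 472 CPM in KO naive cells, a log2 change of -1.41 ± 0.15.

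The transcription factors that answer antigen receptor signals split, with 9 of 24 higher, 13 lower and a median of -0.54. The early factors Fos, Fosb and Nr4a1 were far lower after 4 days. Fosb had 0.851 and 0.805 CPM in KO Th1 cultures, against 826 and 646 CPM in KO naive cells, Fos had 20.4 and 18 CPM in KO Th1 cultures, against 846 and 718 CPM in KO naive cells and Nr4a1 had 89.9 and 84.5 CPM in KO Th1 cultures, against 791 and 829.7 CPM in KO naive cells. They are early genes of the kind that the handling of cells induces. The handling list described above, which holds heat shock genes as well as early genes, also had its higher sums in KO naive cells. The part of handling was not tested, and the design cannot tell it apart from the culture. Batf3, a factor of the AP-1 family, ran the other way, with 133 and 131 CPM in KO Th1 cultures, against 3.06 and 1.36 CPM in KO naive cells, a log2 change of 5.89 ± 0.34.

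Activation and checkpoint receptors rose in 12 of 20 cases and fell in 6, with a median of 0.68. The inhibitory receptors Lag3 and Havcr2 (TIM-3) rose, with 506 and 538 CPM in KO Th1 cultures, against 17.4 and 15 CPM in KO naive cells for Lag3. Havcr2 had 174 and 163 CPM in KO Th1 cultures, against 7.28 and 4.18 CPM in KO naive cells, and Tnfrsf9 (4-1BB), a costimulatory receptor, had 723 and 602 CPM in KO Th1 cultures, against 17.6 and 14.7 CPM in KO naive cells. The log2 changes were 5.01 ± 0.14, 4.87 ± 0.24 and 5.35 ± 0.15 in that order. The members that fell were Btla, Cd27, Cd274, Cd28, Cd5 and Cd69. Cd5, which dampens antigen receptor signals, fell to 33 and 36.8 CPM in KO Th1 cultures, against 226 and 262 CPM in KO naive cells, and Cd69, an early activation marker that also retains cells in tissue, fell by 2.94 ± 0.25 on the log2 scale.

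Genes of the antigen receptor complex itself were lower in 10 of 16 cases and higher in 3, with a median of -0.73. The 3 were Cd3d, Cd3g and Thy1, and without replicate 1 of KO Th1 or of KO naive only Thy1 kept its call. Thy1, a surface glycoprotein of all T cells, had 1744 and 1684 CPM in KO Th1 cultures, against 689 and 791 CPM in KO naive cells, a log2 change of 1.21 ± 0.11. The adaptor gene Lat fell to 275 and 295 CPM in KO Th1 cultures, against 673 and 749.9 CPM in KO naive cells, and the adaptor gene Trat1 to 7.59 and 6.92 CPM, against 39.1 and 48.3 CPM, so both were lower in each KO Th1 library.

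Homing receptors and integrins were lower in 14 of 23 cases and higher in 6, with a median of -1.52. Cxcr3, the receptor for CXCL9 and CXCL10, had 1.32 and 2.66 CPM in KO Th1 cultures, against 45.3 and 60.4 CPM in KO naive cells, a log2 change of -4.73 ± 0.30 (adjusted p = 7.3e-10). It was low in both KO Th1 libraries. Cxcr6, a receptor of tissue-resident and effector cells, had 462 and 315 CPM in KO Th1 cultures, against 57.3 and 40 CPM in KO naive cells, a log2 change of 3 ± 0.24. Ccr2, the receptor for CCL2, had 820.3 and 634 CPM in KO Th1 cultures, against 147 and 100.1 CPM in KO naive cells, and Itgav, Itgb2 and Selplg also rose. The small rise of Itgb2 lost its call without any one of the 4 libraries. The gut homing receptor gene Ccr9 fell to 0 and 0.161 CPM in KO Th1 cultures, against 12.2 and 13.5 CPM in KO naive cells.

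The programs of other helper lineages were mixed. Of 15 Th2 genes 5 rose (Igfbp7, Il13, Il1rl1, Il4ra and Nfil3) and 6 fell, with a median of -0.43. Over all genes tested 36.2% were higher and 34.8% lower, so the Th2 counts lie near those shares. The rise of Il4ra lost its call without replicate 1 of KO Th1 or of KO naive. The Th2 master regulator Gata3 had 11.3 and 11.8 CPM in KO Th1 cultures, against 74.4 and 86.7 CPM in KO naive cells, a log2 change of -2.80 ± 0.16 (adjusted p = 1.77e-10), so both KO Th1 libraries were lower. Il4 was low in all 4 libraries, with 3.48 and 2.42 CPM in KO Th1 cultures, against 3.78 and 5.18 CPM in KO naive cells, and was not called (adjusted p = 0.204), whereas Il13 had 10.1 and 7.65 CPM in KO Th1 cultures, against 2.16 and 2.18 CPM in KO naive cells and rose by 2.03 ± 0.47 on the log2 scale (adjusted p = 0.00152). Il1rl1, the IL-33 receptor, which Th2 cells and mast cells carry, had 335 and 204 CPM in KO Th1 cultures, against 36 and 31.9 CPM in KO naive cells, a log2 change of 2.99 ± 0.22.

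Of 12 regulatory T cell genes 5 rose (Capg, Ebi3, Ecm1, Ikzf4 and Il12a) and 6 fell. The rise of Il12a lost its call without replicate 1 of KO Th1 or replicate 2 of KO naive. Foxp3, their lineage factor, had 1.47 and 1.13 CPM in KO Th1 cultures, against 57 and 56.9 CPM in KO naive cells, a log2 change of -5.44 ± 0.23. Of 11 follicular helper genes 7 fell and none rose at the threshold, and of 12 Th17 genes 6 rose and 1, Ahr, fell, where 2 fell without replicate 2 of KO naive.

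**Figure D4:**
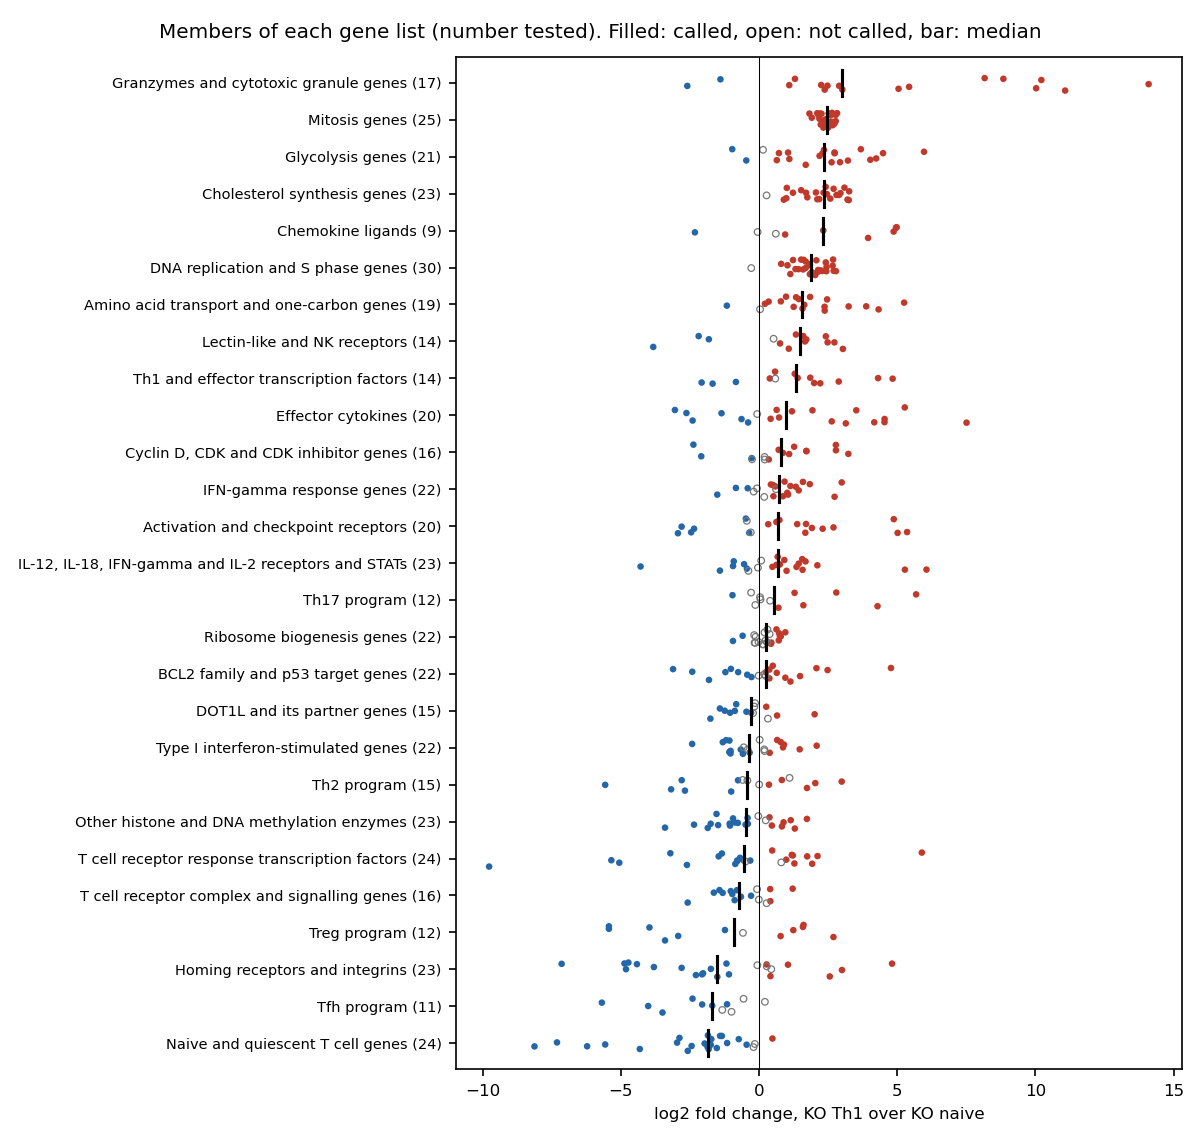
Log2 change of KO Th1 over KO naive (horizontal axis) for each tested member of 27 gene lists, ordered by their medians, with filled points for genes called (red higher, blue lower), open points for genes not called and bars for medians. Granzymes lie furthest right with a median of 3.01, mitosis genes cluster tightly around 2.46, and naive cell genes lie furthest left with a median of -1.84.

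Cell division genes rose together. Of 30 genes of DNA replication and S phase 29 rose and none fell at the threshold, with a median log2 change of 1.87, and all 25 mitosis genes rose, with a median of 2.46. The replication gene that was not called was Cdt1, which licenses origins. Replication genes summed to 4619 and 4986 CPM in KO Th1 cultures, against 1677 and 1562 CPM in KO naive cells. Mitosis genes summed to 4905 and 5187 CPM in KO Th1 cultures, against 1045 and 918 CPM in KO naive cells. Top2a, which untangles chromosomes before division, had 1129.6 and 1148 CPM in KO Th1 cultures, against 177 and 157 CPM in KO naive cells, a log2 change of 2.77 ± 0.35 (adjusted p = 6.58e-06), and WT cells had 851 and 932 CPM in Th1 cultures and 88.7 and 72 CPM before.

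The MCM proteins form the helicase that opens DNA at replication origins. Of their genes, 4 are shown with the DNA around their start sites because they rose together and hold letters bound by the E2F family of cell cycle factors. The letters searched were TTTCGCGC, TTTCCCGC, TTTGGCGC and TTTGGCGG on both strands. Matches can overlap one another. They occurred in the 300 bases around the start of 12 of 24 replication genes that could be matched by symbol (of 30 listed), which is 50%, against 730 of all 27025 genes with a promoter in the table (2.70%). Cdt1, the replication gene that was not called, was among the 12. The sequences run from 250 bases before to 50 bases after the start in RefSeq for GRCm38.p6, 5′ to 3′ on the gene's strand, with matches in capitals: Mcm3 is at chr1:20820263-20820562 on the minus strand, Mcm5 at chr8:75109259-75109558 on the plus strand, Mcm6 at chr1:128359656-128359955 on the minus strand and Mcm7 at chr5:138171834-138172133 on the minus strand.
Mcm3: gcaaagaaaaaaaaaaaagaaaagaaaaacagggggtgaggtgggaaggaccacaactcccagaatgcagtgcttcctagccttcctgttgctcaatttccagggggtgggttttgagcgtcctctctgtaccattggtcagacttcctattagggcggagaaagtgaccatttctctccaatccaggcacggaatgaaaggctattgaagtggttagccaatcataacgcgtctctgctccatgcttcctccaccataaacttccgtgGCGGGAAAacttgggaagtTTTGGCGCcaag
Mcm5: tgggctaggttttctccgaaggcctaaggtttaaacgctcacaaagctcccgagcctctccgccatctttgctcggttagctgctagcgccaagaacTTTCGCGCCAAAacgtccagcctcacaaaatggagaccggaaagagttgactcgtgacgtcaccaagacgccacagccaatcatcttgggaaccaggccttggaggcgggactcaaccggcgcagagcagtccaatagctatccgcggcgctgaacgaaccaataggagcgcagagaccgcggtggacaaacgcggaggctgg
Mcm6: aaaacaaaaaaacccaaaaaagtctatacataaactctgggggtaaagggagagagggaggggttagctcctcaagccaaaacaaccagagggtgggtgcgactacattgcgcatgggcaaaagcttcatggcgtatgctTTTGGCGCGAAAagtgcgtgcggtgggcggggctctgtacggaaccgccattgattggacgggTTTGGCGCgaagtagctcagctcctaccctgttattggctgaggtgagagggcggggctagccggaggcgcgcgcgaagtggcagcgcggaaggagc
Mcm7: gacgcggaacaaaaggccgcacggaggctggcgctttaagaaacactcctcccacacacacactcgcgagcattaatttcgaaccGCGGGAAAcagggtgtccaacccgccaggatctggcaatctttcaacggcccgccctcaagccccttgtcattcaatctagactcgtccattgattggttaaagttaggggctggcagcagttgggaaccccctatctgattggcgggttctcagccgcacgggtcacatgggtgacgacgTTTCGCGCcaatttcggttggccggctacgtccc
Mcm3 had 314 and 332 CPM in KO Th1 cultures, against 103 and 97.8 CPM in KO naive cells, a log2 change of 1.68 ± 0.24 (adjusted p = 2.07e-05). Mcm5 rose by 1.59 ± 0.24, Mcm6 by 1.52 ± 0.14 and Mcm7 by 1.32 ± 0.27, so the 4 genes differed little from one another. Promoters of the cholesterol synthesis genes were searched in the same way for the letters CACCCCAC and CACCCTAC of the sterol element. These occurred in 1 of 16 genes matched by symbol (6.25%), against 4.16% of all 27025 genes. A match of letters describes the sequence and was not tested as a site of binding.

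Among cyclins of the D type, their kinases and inhibitors, 10 of 16 rose, with a median of 0.78, and 3 fell, which were Ccnd1, Ccng2 and Cdkn1b. The small fall of Ccng2 lost its call without any one of the 4 libraries. Cdkn2a, an inhibitor linked to growth arrest, had 9.60 and 14.3 CPM in KO Th1 cultures, against 1.17 and 1.36 CPM in KO naive cells, and Cdkn1b, the p27 inhibitor of resting cells, had 79.2 and 71.4 CPM in KO Th1 cultures, against 311 and 333 CPM in KO naive cells. The log2 changes were 3.23 ± 0.37 and -2.10 ± 0.12, and Cdkn1a, the p53 target p21, rose by 2.78 ± 0.13.

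Metabolic lists rose as well. Of 21 glycolysis genes 18 rose and 2 (Eno3 and Pdk1) fell, with a median of 2.35. The fall of Pdk1 lost its call without replicate 2 of KO naive. The sum of the list was 11537 and 12117 CPM in KO Th1 cultures, against 2276 and 2424 CPM in KO naive cells. Aldoc, an aldolase, had 93 and 81.6 CPM in KO Th1 cultures, against 3.87 and 3.91 CPM in KO naive cells. Slc16a3, which exports lactate, had 424 and 460.1 CPM in KO Th1 cultures, against 6.92 and 7.18 CPM in KO naive cells, and Hk2, the inducible hexokinase, had 237 and 227 CPM in KO Th1 cultures, against 17.6 and 10.9 CPM in KO naive cells. In each gene both KO Th1 libraries were the higher, with log2 changes of 4.48 ± 0.15, 5.97 ± 0.11 and 4.02 ± 0.22.

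Of 23 cholesterol synthesis genes 22 rose and none fell, with a median of 2.33. Sqle, the squalene epoxidase, had 159.9 and 158 CPM in KO Th1 cultures, against 19.4 and 18 CPM in KO naive cells, and Hmgcs1, at the start of the pathway, had 353 and 314 CPM in KO Th1 cultures, against 44.6 and 42.1 CPM in KO naive cells. Of 19 genes of amino acid transport and one-carbon metabolism 17 rose and 1, the transporter gene Slc38a2, fell, with a median of 1.57. Asns, the asparagine synthetase, had 109.8 and 106 CPM in KO Th1 cultures, against 7.19 and 3.55 CPM in KO naive cells, and the log2 changes of these 3 genes were 3.09 ± 0.14, 2.94 ± 0.12 and 4.32 ± 0.28 in that order.

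Ribosome biogenesis genes moved little by comparison. Of 22 genes, 8 rose and 2 (Fbl and Wdr12) fell, with a median of 0.26. The 8 became 5 without replicate 2 of KO Th1 or without either KO naive library, and the 2 became 1 without either KO Th1 library. Nop58, a core protein of small nucleolar particles, had 203 and 194 CPM in KO Th1 cultures, against 130.1 and 127 CPM in KO naive cells, a log2 change of 0.63 ± 0.18 (adjusted p = 0.00568).

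Of 22 genes of the response to IFN-γ, 15 rose and 3 (Gbp9, Irf1 and Nlrc5) fell, with a median of 0.74. The fall of Nlrc5 lost its call without replicate 2 of KO naive. The guanylate binding protein gene Gbp2 had 554 and 571 CPM in KO Th1 cultures, against 75.6 and 94 CPM in KO naive cells, and Gbp5 had 258 and 277 CPM in KO Th1 cultures, against 32.2 and 35.2 CPM in KO naive cells, with log2 changes of 2.73 ± 0.74 and 2.99 ± 0.31. These genes have close relatives, so their levels are uncertain where reads map to several of them. Of 22 genes induced by type I interferon, 7 rose and 10 fell, with a median of -0.38. Among them Irf7, a regulator of interferon genes, had 61.8 and 73 CPM in KO Th1 cultures, against 152 and 184 CPM in KO naive cells, and Isg15, a ubiquitin-like protein, had 44.4 and 47.6 CPM in KO Th1 cultures, against 14.7 and 18.5 CPM in KO naive cells, so that Irf7 was lower and Isg15 higher in both KO Th1 libraries.

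Genes of cell death and of the p53 response split evenly, with 11 of 22 higher, 8 lower and a median of 0.24. Bcl2a1d, a survival gene with near-identical copies, rose by 2.07 ± 0.24, and Bcl2l11, the gene of the death inducer BIM, had 86.1 and 89.1 CPM in KO Th1 cultures, against 159 and 197 CPM in KO naive cells, a log2 change of -1.02 ± 0.24. Of 15 genes of DOT1L and its partner complexes, 3 rose (Cdk9, Ell2 and Men1) and 8 fell, with a median of -0.29. The rise of Cdk9 lost its call without replicate 1 of KO naive. Aff3, a subunit of elongation complexes, had 22.7 and 29.8 CPM in KO Th1 cultures, against 83.6 and 94.6 CPM in KO naive cells, a log2 change of -1.77 ± 0.13. Of 23 other enzymes of histone and DNA methylation, 7 rose and 14 fell, with a median of -0.49, and the histone H3 lysine 27 demethylase gene Kdm6b had 38.9 and 34.1 CPM in KO Th1 cultures, against 366 and 409 CPM in KO naive cells, a log2 change of -3.41 ± 0.12.

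The 12 genes with the highest log2 change included Gzmc, Gzmd, Gzme and Gzmf, described above, and 8 more that belong to no granule list. Spp1, the gene of osteopontin, a secreted phosphoprotein of Th1 cells and macrophages, had 523 and 624 CPM in KO Th1 cultures, against 0.989 and 0.636 CPM in KO naive cells, a log2 change of 9.44 ± 0.44 (adjusted p = 2.34e-10). Ly6g, known as a surface marker of neutrophils and one of a family of close relatives, had 225 and 288 CPM in KO Th1 cultures and 2 counts over both KO naive libraries, a ratio of 2830 (95% counting interval 783 to 23371). Its level in WT Th1 cultures was much the same, at 221 and 249.7 CPM.

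Tph1, the tryptophan hydroxylase of serotonin synthesis, which mast cells and T cells can express, had 6286 counts after culture and 2 before, a ratio of 2744 (759 to 22661), and Mcpt2, a mast cell protease, had 971 counts and 1 count, a ratio of 848 (152 to 33514). Nkain1, Akr1b8, Lum and Pdpn had no count in KO naive cells and were at least 226-fold, 96.0-fold, 79.4-fold and 78.6-fold higher, in that order. Of these, Lum, an extracellular matrix proteoglycan, had 15.5 and 5.88 CPM in KO Th1 cultures and Pdpn, the gene of podoplanin, had 11.1 and 10.1 CPM.

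The 12 genes with the lowest log2 change are known from macrophages, as C1qa, C1qb, C1qc, Cd5l, Slc40a1, Adgre4, Mertk, Spic and Hpgd, or from red cell precursors, as Hba-a2, Slc4a1 and Alas2. The complement gene C1qb had no count in either KO Th1 library, against 229.9 and 101 CPM in KO naive cells, and was at least 1398-fold lower. The iron exporter gene Slc40a1 had 1 count over both KO Th1 libraries and 6772 over the KO naive libraries, a ratio of 7757 (95% counting interval 1392 to 306447). In all 12 genes replicate 1 of the KO naive cells was the higher one. When only these 4 libraries were fitted, C1qa, C1qb, Hba-a2, Mertk, Spic, Slc4a1 and Alas2 lost their call, and DESeq2 did not call C1qc and Spic.

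The same step in WT cells gives the values to set these beside. WT Th1 cultures differed from WT naive cells in 4480 genes that were higher and 4311 that were lower, each of the comparisons using its own naive libraries. Of the genes higher in KO, 3486 were also higher in WT (73.7%), and of those lower in KO, 3345 were also lower in WT (73.5%). A test of the difference between the KO change and the WT change called 3599 genes, of which 1395 had the higher log2 change in KO (10.7%) and 2204 the lower (16.9%). The count of 1395 was the less stable: it was 905 without replicate 1 of KO Th1, 929 without replicate 2 of KO naive, 802 and 866 without replicate 1 or 2 of WT Th1 and 831 without replicate 1 of WT naive. The median difference over all genes was -0.04. In 105 genes KO rose and WT fell, and in 188 KO fell and WT rose.

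Ccr4, a homing receptor for skin and for CCL17, was one of the 188. It had 2.32 and 3.22 CPM in KO Th1 cultures, against 38.76 and 39.1 CPM in KO naive cells, while WT cells had 26 and 20.8 CPM in Th1 cultures and 16.8 and 18 CPM before, so the log2 change was -3.81 ± 0.19 in KO and 0.43 ± 0.15 in WT, with a difference of -4.24 ± 0.24 (adjusted p = 6.86e-09). The folate receptor family gene Izumo1r and the ATP-gated channel gene P2rx7 also fell in KO and rose in WT, with differences of -4.73 ± 0.29 and -3.27 ± 0.24.

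Tbx21 rose in both genotypes, by 2.21 ± 0.14 in KO and 3.80 ± 0.15 in WT, and the difference of -1.59 ± 0.20 was called (adjusted p = 2.85e-05). WT cells had 287 and 272 CPM in Th1 cultures and 22.5 and 17.7 CPM before, so the KO levels given above were lower than those of WT after culture and higher before it. The Th1 transcription factor list held 10 of 14 genes with a lower change in KO and none with a higher one, and the receptor list for IL-12 and its relatives held 12 of 23 lower and 1 higher, Il2ra. For naive cell genes the counts were 17 of 24 lower and none higher, and for antigen receptor genes 10 of 16 lower and none higher. Activation receptors had 11 of 20 lower and none higher. For these last lists, 1 antigen receptor gene was higher without replicate 2 of KO naive, without scaling or with RLE scaling, and 1 activation receptor gene without replicate 2 of KO Th1, without replicate 1 of KO naive or without scaling. Glycolysis genes had 9 of 21 lower and 2 (Gapdh and Slc16a1) higher. A lower change in KO can come from the naive level, the level after culture or both. The Th1 factor sum averaged 3688 CPM in KO Th1 and 3868 CPM in WT Th1 cultures. Before culture it was 1950 CPM in KO and 1287 CPM in WT. The naive gene sum averaged 4062 CPM in KO Th1 and 12044.5 CPM in WT Th1 cultures, and 11434 and 17707 CPM before.

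Other lists had more genes with the higher change in KO. Amino acid and one-carbon genes had 10 of 19 with a higher change in KO and 1, Ddit4, with a lower one. Ribosome biogenesis genes had 15 of 22 higher and none lower. That count was 9 without replicate 2 of KO Th1 or of KO naive, and 7 without replicate 1 of WT Th1 or of WT naive. Cholesterol synthesis genes had 8 of 23 higher and none lower, which became 5 without replicate 1 of KO Th1, replicate 2 of WT Th1 or replicate 2 of WT naive, and 4 without replicate 1 of KO naive or of WT Th1. Mast cell and basophil markers had 6 of 14 higher and none lower, which became 3 without replicate 2 of KO naive or of WT Th1 and 2 without replicate 1 of WT naive. Nop58 fell in WT, with 114 and 122 CPM in Th1 cultures and 186 and 167 CPM before, and the difference was 1.21 ± 0.25 (adjusted p = 0.00275). Few cell division genes were called: 1 of 30 replication genes (Cdt1) was higher and 1 of 25 mitosis genes (Ncapg) was lower, with a median difference of 0.19 for replication genes and -0.78 for mitosis genes. The mitosis sum averaged 5046 CPM in KO Th1 and 3804 CPM in WT Th1 cultures. Before culture it was 982 CPM in KO and 433 CPM in WT. Cdt1 lost its call when any library of the test except replicate 1 of KO Th1 was left out.

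Of 17 cytotoxic granule genes, 5 had a higher change in KO and 5 a lower one, with a median difference of 0.60. Over all genes tested, 10.7% had a higher change in KO and 16.9% a lower one. Both list counts fell when some single libraries were left out. Gzmc rose in both genotypes, with 144 and 162 CPM in WT Th1 cultures and 1.08 and 1.26 CPM in WT naive cells, and its log2 change was 3.20 ± 0.98 above that of WT (adjusted p = 0.0262). The call was lost without any one of the 4 naive libraries, where Gzmc has few counts, and under limma voom. Il13 rose by 2.03 ± 0.47 in KO and by 6.12 ± 0.51 in WT, with a difference of -4.09 ± 0.88 (adjusted p = 0.00396). Gata3 differed by -1.93 ± 0.21 (adjusted p = 9.69e-06), falling more in KO. Among the 8 genes with the highest difference, the mast cell protease Mcpt4 had 31 and 13.1 CPM in KO Th1 cultures, against 3.42 and 4 CPM in KO naive cells, while WT cells had 0.509 and 0.579 CPM in Th1 cultures and 7.17 and 2.96 CPM before, a difference of 5.75 ± 0.74 (adjusted p = 5.29e-05).

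The GTPase regulator gene Arhgap20 had 15 and 13.1 CPM in KO Th1 cultures, against 0.809 and 0.818 CPM in KO naive cells, while WT cells had 4.08 and 2.90 CPM in Th1 cultures and 10.6 and 9.25 CPM before, a difference of 5.60 ± 0.40. Tns4, a focal adhesion protein, was among the 8 lowest: it was not called in KO, with 0.851 and 2.17 CPM in KO Th1 cultures, against 1.35 and 1.36 CPM in KO naive cells, and had 52.7 and 57.8 CPM in WT Th1 cultures and 1.28 and 0.988 CPM in WT naive cells, a difference of -5.46 ± 0.52 (adjusted p = 2.1e-06).

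**Figure D5:**
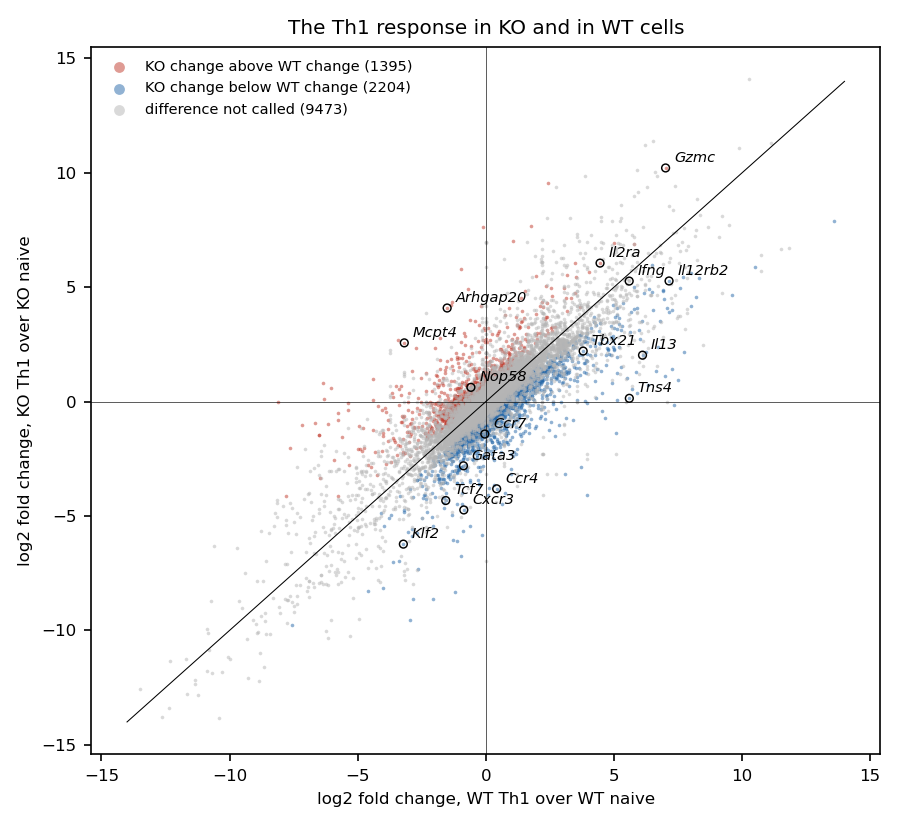
Log2 change of KO Th1 over KO naive (vertical axis) against that of WT Th1 over WT naive (horizontal axis) for 13072 genes, with the 1395 genes whose change was called above that of WT in red and the 2204 called below it in blue. Most genes follow the diagonal, while Ccr4 lies in the quadrant of genes lower in KO and higher in WT, and Mcpt4, Arhgap20 and Nop58 in the opposite one.

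Set against KO Th2 cultures, which share genotype, receptor stimulation and time in culture, KO Th1 cultures had 3670 genes higher (28.1%) and 4151 lower (31.8%). Ifng had 2559 and 1658 CPM in KO Th1 cultures, against 46.9 and 80.2 CPM in KO Th2 cultures, a log2 change of 5.06 ± 0.30 (adjusted p = 6.69e-09), and Tbx21 differed by 2.32 ± 0.14. Gata3 had 11.3 and 11.8 CPM in KO Th1 cultures, against 229 and 169 CPM in KO Th2 cultures, a log2 change of -4.11 ± 0.16 (adjusted p = 5.58e-12). Both genes separated the cultures without overlap.

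Granule genes were high in both cultures. Gzmb had 11122 and 10030.00 CPM in KO Th1 cultures, against 16838 and 21625 CPM in KO Th2 cultures, and Gzma had 2109.5 and 1196 CPM in KO Th1 cultures, against 20238 and 22258 CPM in KO Th2 cultures, so both were lower in KO Th1, with log2 changes of -0.86 ± 0.14 and -3.68 ± 0.28. Gzmc differed in the other direction, with 355 and 570.3 CPM in KO Th2 cultures and a log2 change of 2.46 ± 0.28 (adjusted p = 4.72e-06). Cell division genes set the cultures apart: 29 of 30 replication genes and all 25 mitosis genes were higher in KO Th1, and the mitosis sum was 4905 and 5187 CPM in KO Th1 cultures, against 424 and 1241 CPM in KO Th2 cultures.

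Cholesterol synthesis genes were lower in KO Th1 in 12 of 23 cases and higher in 1 (Ebp), and glycolysis genes lower in 15 of 21 and higher in 2 (Gapdh and Hk2). The 1 became 0 without either KO Th1 library or replicate 1 of KO Th2, and the 2 became 0 without replicate 2 of KO Th1 and 1 without replicate 1 of KO Th1 or replicate 2 of KO Th2. Without scaling, 8 cholesterol synthesis genes were lower and 2 higher, and 13 glycolysis genes were lower and 4 higher. The chemokine gene Cxcl10 had 21.8 and 22.8 CPM in KO Th1 cultures and no count in KO Th2 cultures, at least 154-fold higher, and Chil3, a chitinase-like protein of alternatively activated macrophages, had no count in KO Th1 cultures and 26.6 and 48.9 CPM in KO Th2 cultures, at least 309-fold lower. The Chil3 call was lost under limma voom. With library sizes left unscaled, the split was 5669 genes higher and 2667 lower and the median over all genes shifted to 0.26, so modest changes against KO Th2 depend on the scaling.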

How the data were processed

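RNA was sequenced in 20 libraries, and the deposited table gives, per the file headers, whole-number counts of reads per gene made by the authors (featureCounts 1.5.3, strand setting 2, genome GRCm38 with the genes of Ensembl release 84), without multimapping reads. The table's gene length, also made by the authors, was used for TPM alone. Among tools, edgeR and limma appear in the submitters' processing notes, and the aligner is not given in the sources used here. Column names give group and replicate, except for 2 columns of compound-treated cells whose names differ from the sample titles and which were mapped to their group alone.

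The 22048 protein-coding genes were filtered with filterByExpr, which left 13072, and fitted with edgeR 4.0.16 (TMM scaling, robust quasi-likelihood test, R 4.3.3) over all 20 libraries as 10 groups, with 10 residual degrees of freedom and a common biological coefficient of variation of 0.0963. Benjamini-Hochberg adjustment ran over all genes tested. CPM use the scaled library sizes. The fit was also run on simulated counts with the same spread in every group and few changed genes. That run cannot show how the scaling and the shared spread perform on these data, and its outcome is not given. DESeq2 1.42.0 and limma voom (limma 3.58.1) were alternatives, besides RLE or no scaling, no gene filter, the table of all 47729 genes, fits of fewer libraries, a 2-fold threshold, the replicate block, and leaving out each library. Counting intervals and the floor of 3 counts per group cover counting error only, since PCR reads are not independent molecules. Libraries held between 9704500 and 13025588 counts, which makes counting error small except for genes with few counts.

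The members and the gene lists (28 pathway and 11 marker lists, some taken from an earlier session) were chosen with earlier results of these data known. Named genes are the 12 at each end of the contrast and the 8 at each end of both other tests, with a mean of at least 1 log2 CPM and libraries that do not overlap (provisional names left out), up to 5 members per list with the largest called change, and Dot1l, Ifng, Gzmc, Tbx21, Gata3, Il4, Il13 and Cd4. Other genes named were chosen after their values were seen. Where libraries are said not to overlap, this describes the levels and is no test. Groups this small can be free of overlap without a true change, and no share over all genes tested is given. Of the list symbols, 3 were not found in the table. Promoter sequences are from RefSeq for GRCm38.p6. A few genes that the lists hold or the naming rule picks are counted but not reported by name here.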

Additional observations from a re-analysis of the deposited data

Results flagged for a closer look

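The change from naive cells to Th1 cultures differed between KO and WT in 3599 genes by the test of the difference itself, and the genes named below are those that were to be named whatever their result, or that the naming rule picked for this difference, which passed it and had more than 3 counts in each of the 4 groups compared. Mcpt4, a mast cell protease, differed by 5.75 on the log2 scale and Tpsb2, a tryptase, by 4.37. Tpsb2 had 43.7 and 16.1 CPM in KO Th1 cultures, against 1.53 and 1.73 CPM in KO naive cells, while WT cells had 2.63 and 2.15 CPM in Th1 cultures and 3.93 and 1.53 CPM before. Without replicate 1 of WT naive the difference in Tpsb2 was no longer called.

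Pf4, a platelet chemokine, differed by 4.55 and had 13.4 and 20.5 CPM in KO Th1 cultures, against 2.70 and 2.18 CPM in KO naive cells, while WT cells had 0.934 and 0.165 CPM in Th1 cultures and 2.45 and 1.35 CPM before. The purinergic receptor genes P2rx1 and P2ry2 differed by 4.31 and 4.19. P2rx1 had 14.1 and 7.49 CPM in KO Th1 cultures, against 2.25 and 2 CPM in KO naive cells, and P2ry2 had 3.56 and 3.22 CPM in KO Th1 cultures, against 0.270 and 0.273 CPM in KO naive cells. In WT cells P2rx1 had 0.509 and 0.579 CPM in Th1 cultures and 2.55 and 1.80 CPM before, and P2ry2 had 0.340 and 0.331 CPM and 0.491 and 0.539 CPM. P2ry2 was thus near the floor in all groups but KO Th1, and Pf4 and P2rx1 were so in WT Th1 cultures. The sizes of these differences rest on few counts. Arhgap20 differed by 5.60 and Gzmc by 3.20.

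On the other side Tns4 differed by -5.46, Il13 by -4.09, Gata3 by -1.93, Tbx21 by -1.59 and Cd4 by -1.03. Cd4 was lower in both KO Th1 libraries than in KO naive cells and level in WT, where its log2 change was 0.06 ± 0.11. The mast cell and basophil marker sums given in the report move with Mcpt4 and Tpsb2, and their part in these differences was not tested.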

How the results depend on the processing

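No named gene or list member changed direction with a call for KO Th1 against KO naive or for the difference between the KO and WT changes. Against KO Th2, 17 of these genes did so without scaling, for example Ccnt1 (-0.23 as reported, 0.06 unscaled) and Ldha (-0.25 and 0.05), and 1, Cd69, did so without replicate 2 of KO Th2 (-0.13 with it, 0.46 without). Leaving out each library in turn gave 8391 to 8570 called genes for KO Th1 against KO naive, 2536 to 3079 for the difference between the KO and WT changes, and 6726 to 7230 for KO Th1 against KO Th2, where a lone sample was assumed to vary like the other groups. Testing against a 2-fold change left 3292 genes, 1770 higher and 1522 lower, by construction of that test. Other total counts stayed within 1.5 times of those reported, from 8836 with DESeq2 to 10821 with the table of all genes for KO Th1 against KO naive.

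Same-numbered libraries were not taken as pairs, since the labels tie the numbers to no animal or batch and there are only 2 numbers. The correlations of their deviations were 0.12 to 0.29 among the KO and WT, naive and Th1 groups, and -0.03 and 0.02 for KO Th2 with KO naive and KO Th1. With the replicate block 4784 genes were higher and 4585 lower (9369 in all), the KO and WT changes differed in 3959 genes, and KO Th1 differed from KO Th2 in 7875. Without scaling, KO Th1 against KO Th2 split into 5669 genes higher and 2667 lower, against 3670 and 4151 as reported.

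Of the gene values for KO Th1 against KO naive, 99 lost and 18 gained a call when a library was left out, and 2267 did neither. Each named or listed gene enters these numbers once for every library of the contrast left out, so they are not numbers of genes. Depth limits Gzmd, Gzme, Gzmf and other genes with 0 to 2 counts in one group to bounds or wide intervals.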

Other observations

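Genes called lower in KO Th1 cultures than in KO naive cells spanned a median of 27.1 kb in the annotation and those called higher 20.2 kb, with 21.8 kb for genes not called. The median exon length was 4713 bases for genes called lower and 3506 bases for genes called higher. The same order held for the difference between KO and WT, where genes with the lower change in KO spanned a median of 28 kb and those with the higher change 21.6 kb. It did not hold for KO Th1 against KO Th2, with 23.5 kb for genes called lower and 24.0 kb for genes called higher. The median level also differed, at 43.1 CPM for genes called lower in KO Th1 than in KO naive and 29.4 CPM for genes called higher. For the difference between KO and WT it was 70.5 CPM for genes with the lower change and 37.3 CPM for those with the higher. The part of level in the difference of span was not tested.

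Several genes of the antigen response ran in opposite directions in KO and WT cells. Nfatc1, a calcium-dependent factor of T cell activation, had 82.7 and 93 CPM in KO Th1 cultures, against 219.6 and 228 CPM in KO naive cells, a log2 change of -1.35 ± 0.09, while WT cells had 277 and 297 CPM in Th1 cultures and 233 and 240.2 CPM before, a log2 change of 0.28 ± 0.08. Ptprc, the phosphatase CD45, had 1398 and 1337 CPM in KO Th1 cultures, against 2484 and 2573 CPM in KO naive cells, and in WT cells 3968 and 3963 CPM in Th1 cultures and 3129 and 2891 CPM before. The adjusted p of the difference was 1.56e-07 for Nfatc1 and 5.13e-05 for Ptprc by edgeR's quasi-likelihood test. Bcl2l11 differed likewise, with 322 and 301 CPM in WT Th1 cultures and 146 and 156 CPM in WT naive cells (adjusted p of the difference = 0.000535).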
